A study of Mus musculus with 30 samples.

Results

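Arginine residues of proteins are methylated by the protein arginine methyltransferases, and the 9 genes described here are 8 of these enzymes (Prmt1, Prmt2, Prmt3, Carm1, Prmt5, Prmt6, Prmt7 and Prmt9) together with Jmjd6, an oxygenase reported to demethylate arginine. They were picked by gene symbol for what they encode, at a time when other results of these data were already known. What was measured is N6-methyladenosine, abbreviated m6A, the methylated adenosine found within messenger RNA, given as bins of 100 nt that the authors called enriched after immunoprecipitation with an m6A antibody. The 9 genes held 53 distinct bins, of 62139 bins in 13765 genes, and these 53 were called 191 times among the 204208 calls of the 15 lists.

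The cells were mouse embryonic stem cells of strain C57BL/6, grown with serum and leukemia inhibitory factor on gelatin. The 5 lines were wild-type cells (WT), cells with METTL14 knocked out (KO), and that knockout carrying METTL14 again in its wild-type form (KO+WT) or as either of 2 forms that the labels call arginine methylation-deficient, 5RK (KO+5RK) and 13RK (KO+13RK). All 3 rescue lines therefore share the knockout of the endogenous gene with KO. METTL14 is the partner of the catalytic subunit METTL3 in the complex that deposits m6A, and the title of the series places its arginine methylation in its disordered C-terminus. Each line had 3 replicates with 1 list each. How METTL14 was returned, at what level, and whether a line is 1 clone are not given in the sources used here. Nor is it said whether replicates were separate cultures, so the lists of a line may be technical replicates. The p-values below take each list as a unit. For KO they set the lists of 1 line against the pooled lists of WT, KO+WT, KO+5RK and KO+13RK, so they do not measure the spread between lines.

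As background, type I enzymes (PRMT1, PRMT2, PRMT3, CARM1 and PRMT6) place an asymmetric dimethyl group on arginine, type II enzymes (PRMT5 and PRMT9) a symmetric one, and PRMT7 a single methyl group. Their substrates include histones, splicing factors and RNA-binding proteins with arginine-glycine repeats. In messenger RNA, m6A is concentrated around stop codons and in long internal exons, and in embryonic stem cells it is known for shortening the life of transcripts. The calls below concern the mark on the transcripts of these enzymes, not the enzymes' activity.

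The lists differed in length, from 6328 bins in KO replicate 1 to 23164 in WT replicate 1, and the mean length went from 22683 ± 474 bins for WT through 15206 ± 1714 for KO+WT, 12298 ± 985 for KO+5RK and 10105 ± 762 for KO+13RK to 7777 ± 1258 for KO (SD, n = 3 lists). Because the read depth behind a bin is unknown, intervals from counting are left out, and a bin that is not called is not thereby free of m6A. In bulk RNA, fewer methylated copies, less transcript per cell and fewer expressing cells cannot be told apart from a call. Of the markers of embryonic stem cells, 7 of 8 had a called bin in at least 1 list (Dppa5a had none), with 8 to 26 bins summed over the markers in a list. Of 6 fibroblast markers 4 had one, nearly all of them in Fn1, while Col1a2 and Col3a1 had none. The summed fibroblast bins were 24 to 31 in the WT lists and 0 to 4 in every other list, and their part in the differences between WT and the other lines was not tested. The targeted gene offers no check of the labels, because the 1 bin of Mettl14 was called in KO+5RK alone, in 2 of its lists.

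Summed over the 9 genes, wild-type cells carried the most bins and the knockout the fewest. The WT lists held 25, 24 and 22 member bins, the KO lists 5, 7 and 5. The KO+WT lists held 17, 14 and 15, the KO+5RK lists 8, 13 and 9, and the KO+13RK lists 11, 9 and 7. The WT lists thus lay above every other list, the KO lists at or below every other list, and the KO+WT lists above those of both arginine mutants, which overlapped each other. The mean was 23.7 ± 1.53 for WT, then 15.3 ± 1.53 for KO+WT, 10.0 ± 2.65 for KO+5RK, 9.0 ± 2.0 for KO+13RK and 5.67 ± 1.15 for KO (SD, n = 3), which was also the order of list length. As a share of all bins in a list, the member bins made up 0.104% ± 0.00473 for WT, 0.102% ± 0.019 for KO+WT, 0.0902% ± 0.0248 for KO+13RK, 0.0813% ± 0.0203 for KO+5RK and 0.0735% ± 0.0134 for KO. On that scale each rescue line overlapped both WT and KO, while WT and KO stayed apart. Single calls were common: 19 of the 53 bins (35.8%, against 44.0% over all genes) appeared in 1 list only, and 0 were called in all 15 (0.797% over all genes).

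**Figure D1:**
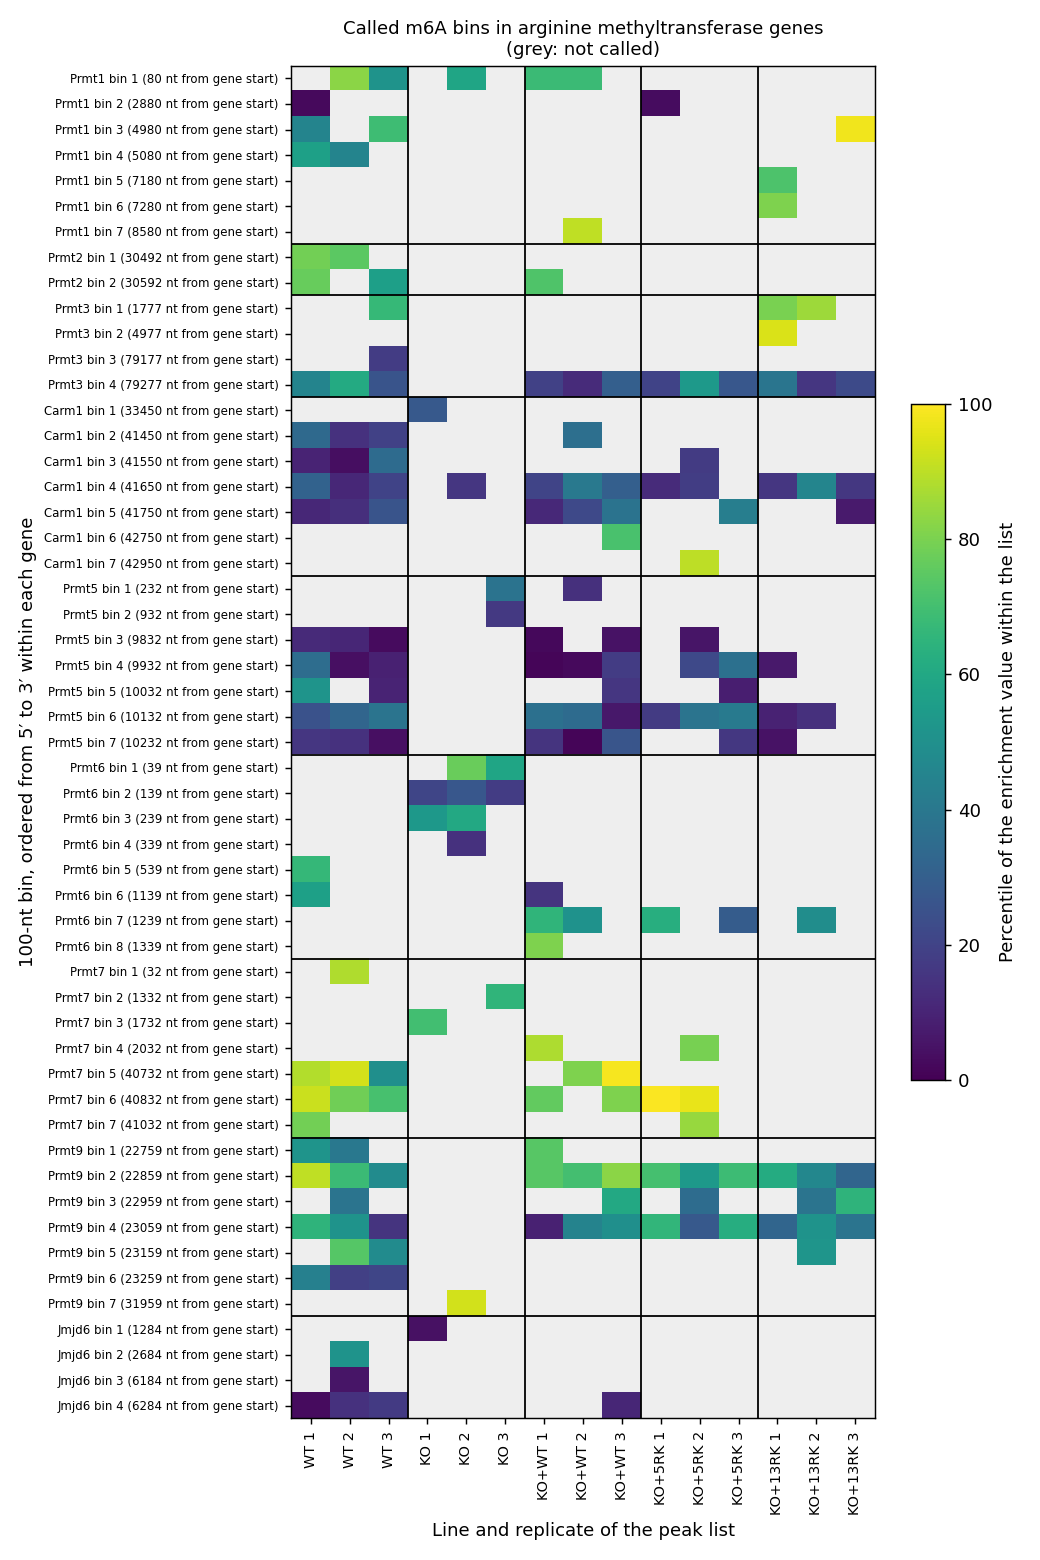
Presence of each of the 53 member bins (rows, in the order of transcription within each gene) in each of the 15 lists (columns, grouped by line); a coloured cell is a called bin, its colour the percentile of its enrichment value within the list, and grey is not called. The WT columns are the fullest, with 22 to 25 bins, the KO columns hold 5 to 7, and the 4 bins at the start of Prmt6 are coloured only in KO columns.

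Between KO and the 12 other lists, 3 member bins were rarer in KO and 1 was more frequent (two-sided Fisher's exact test per bin, Benjamini-Hochberg adjustment over the 24770 bins that were called in at least 3 of the 15 lists, of which 25 were member bins). The 3 bins that fell were 1 in Prmt3 and 2 in Prmt9, each called in 12 of 12 other lists and 0 of 3 KO lists. The bin that rose was in Prmt6, called in 3 of 3 KO lists and 0 of 12 others. By Fisher's exact test, all 4 had p = 0.0022 and an adjusted p = 0.0378. The Prmt6 bin entered the test only through its 3 KO calls. A bin called in KO alone can be tested only at 3 of 3 KO lists against 0 of 12 others. Its p was therefore fixed by the filter and is no separate support for the rise. Over all genes 4.76% of tested bins fell and 1.05% rose, 5.81% in either direction. Leaving out any 1 KO list, or taking the replicate number as a block, left 0 bins of any gene past the threshold, so those settings do not bear on the members in particular. With every list cut to its 6328 bins of lowest q, 1 of 11 member bins tested passed, in Prmt9 (Fisher's exact test, adjusted p = 0.0254), and 963 bins of all genes. The number of bins tested over all genes at that length is not given, so the 1 of 11 has no background share.

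Taken per gene, with a gene counted once in a list however many bins it had, 0 of 9 members and 0 of 9852 genes passed the same Fisher's exact test (0.0% called), while 2 members and 1440 genes had an unadjusted p under 0.05. These 2 members were Prmt3, called in 0 of 3 KO lists and all 12 others (Fisher's exact test, adjusted p = 0.0633), and Prmt9 (adjusted p = 0.243). With bins limited to q under 0.005, Prmt9 passed (0 of 3 KO lists against 12 of 12 others, Fisher's exact test, adjusted p = 0.0468). It was 1 of 8 members tested in that setting, where 301 genes passed over all genes. The number of genes tested there is not given, so the 1 of 8 cannot be set against a share over all genes.

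Of the type I enzymes, Prmt3, whose product methylates a protein of the small ribosomal subunit in the cytoplasm, had 4 bins on the plus strand of chromosome 7. Its steady bin, at chr7:49857547-49857646 (GRCm38) and 3667 nt before the RefSeq gene end, was called in every WT, KO+WT, KO+5RK and KO+13RK list and in no KO list. Its enrichment ranked low to middling, between the 12.3 and 61.0 percentile of its list (0 is the weakest bin and 100 the strongest). This bin overlaps bins of Gm26856 on the opposite strand, which were called there in 3 lists. They were 2 KO+5RK lists, which also called the Prmt3 bin, and 1 KO list. The place was therefore enriched in 1 KO list with no Prmt3 call. The gene behind a call at this place, and the absence of Prmt3 from KO, are thus uncertain. The other 3 Prmt3 bins were called in 1 to 3 lists each.

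Carm1, a coactivator that methylates histone H3, was the only member with the same number of bins in every WT list, 4, 4 and 4. These 4 bins adjoin each other at chr9:21588295-21588694, with centres 822 to 1122 nt before the gene end. In this stretch the KO lists held at most 1 bin, the KO+WT lists 2 to 3 and the mutant lists 1 to 2. The bin at chr9:21588495-21588594 was called in all WT, KO+WT and KO+13RK lists, in 2 KO+5RK lists and in 1 KO list, and did not pass the test of KO (Fisher's exact test, p = 0.0813, adjusted p = 0.323). The neighbour at chr9:21588395-21588494 was called in all 3 WT lists and in 1 further list, of KO+5RK. All 4 ranked below the middle of their lists, between the 3.64 and 45.4 percentile.

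Prmt1, the enzyme that makes most asymmetric dimethylarginine in mammalian cells, had few and scattered bins. Its 7 bins gave 3, 2 and 2 calls in the WT lists, 0, 1 and 0 in KO, 1, 2 and 0 in KO+WT, 1, 0 and 0 in KO+5RK and 2, 0 and 1 in KO+13RK. No Prmt1 bin was called in all 3 lists of any line. The one seen in most lists, 80 nt from the gene start at chr7:44986290-44986389, was called in 2 WT, 1 KO and 2 KO+WT lists. Prmt2, an enzyme of weak activity that coactivates nuclear receptors, had 2 adjoining bins at the very end of its gene, 46 and 146 nt before it on chromosome 10. Together they gave 2, 1 and 1 calls in the WT lists, 1 call in KO+WT replicate 1, and none in KO or the mutants. The upstream bin, at chr10:76207323-76207422, overlaps Mir678 on the same strand, which was called there in 9 lists, 2 of them shared with Prmt2. The place was therefore enriched in lists with no Prmt2 call, and the absence of Prmt2 from the KO and mutant lists is uncertain as to gene.

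Prmt6, a nuclear enzyme that methylates histone H3, held the bin that rose. It was the only member called in all 3 KO lists, with 2, 4 and 2 bins, against 2, 0 and 0 in WT, 3, 1 and 0 in KO+WT, 1, 0 and 1 in KO+5RK and 0, 1 and 0 in KO+13RK. All its KO calls fell in 4 adjoining bins at the gene start, chr3:110250610-110251009, which no other line called. Outside the KO lists, its bins lay 539 to 1339 nt from the start. That bin, chr3:110250810-110250909, is centred 139 nt from the start and ranked between the 17.6 and 27.1 percentile of the KO lists. The 4 bins overlap, on the opposite strand, bins of C130013H08Rik, which were called there in all 3 KO lists and in 1 list each of WT, KO+WT and KO+13RK. All 3 lists with the Prmt6 stretch also called the opposite gene. The library kit keeps strand, per the labels, but whether the authors counted by strand is not stated, so the Prmt6 calls cannot be told apart from reads of the opposite gene.

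The start of Prmt6 is printed because the KO-only calls lie on it, and that of Prmt7 as the other member window that a called bin reaches within the stretch read (1 WT list). Each runs 5′ to 3′ from 100 bases before the RefSeq start (GRCm38.p6) to 30 after it, and capitals mark the bases inside a called bin.
Prmt6, chr3:110250970-110251099, minus strand: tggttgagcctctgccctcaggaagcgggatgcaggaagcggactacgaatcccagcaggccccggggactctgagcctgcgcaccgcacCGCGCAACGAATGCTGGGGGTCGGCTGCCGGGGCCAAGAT
Prmt7, chr8:106210954-106211083, plus strand: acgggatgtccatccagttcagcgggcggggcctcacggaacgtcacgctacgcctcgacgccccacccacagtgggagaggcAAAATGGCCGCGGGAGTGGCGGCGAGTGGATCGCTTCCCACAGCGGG
GGAC, a common core of the m6A motif, occurs 2 times on the sense strand and 0 times on the opposite strand of the Prmt6 window, and 0 and 1 times in that of Prmt7. Every occurrence lies outside the capitals. Of 32851 promoter windows of the same length, 37.7% hold it on the sense strand and 37.7% on the opposite strand.

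Among the type II enzymes, Prmt5, which makes most symmetric dimethylarginine and acts on spliceosomal Sm proteins together with WDR77, had the most calls of any member, 41. Its WT lists held 5, 4 and 5 bins, KO 0, 0 and 2, KO+WT 4, 4 and 5, KO+5RK 1, 3 and 4, and KO+13RK 3, 1 and 0. Calls in KO+WT were thus within the range of WT, and those of each mutant line reached from 0 or 1 up to 3 or 4. Apart from 2 bins in the first part of the gene, which were the KO calls and 1 KO+WT call, the bins formed 1 stretch at the gene end, chr14:54507188-54507687, that no KO list called. Its bin at chr14:54507288-54507387 was called in 11 of 12 other lists and 0 of 3 KO lists and missed the threshold (Fisher's exact test, adjusted p = 0.0911). The stretch ranked mostly low in its lists, with a median percentile of 14.2.

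Prmt9, which symmetrically methylates a splicing factor of the U2 snRNP, carried most of its bins inside the gene. Bins numbered 4, 6 and 4 in WT, 0, 1 and 0 in KO, 3, 2 and 3 in KO+WT, 2, 3 and 2 in KO+5RK and 2, 4 and 3 in KO+13RK. KO lay below every other line, and the 3 rescue lines overlapped. Of its 7 bins, 6 adjoin each other at chr8:77572098-77572697, with centres 8690 to 9190 nt before the gene end, and none of the 6 was called in KO. The seventh lies on the gene end, at chr8:77581298-77581397, and was called in KO replicate 2 alone. The 2 that fell, chr8:77572198-77572297 and chr8:77572398-77572497, were the bins of this stretch called in all 12 other lists, with percentiles from 32.6 to 90.3 and from 9.09 to 66.0. A neighbour at chr8:77572598-77572697 was called in all 3 WT lists and in no list of any other line.

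Prmt7, the monomethylating enzyme, had 3, 3 and 2 bins in WT, 1, 0 and 1 in KO, 2, 1 and 2 in KO+WT, 1, 3 and 0 in KO+5RK and 0 in every KO+13RK list. It was the only member called in all KO+WT lists and in no KO+13RK list, where 7.19% of all genes called in every KO+WT list were without a call. Those calls rest on the stretch chr8:106251737-106252136, which begins past the RefSeq gene end and overlaps the opposite-strand gene Gm26786. The stretch was called for Prmt7 in 8 lists and for Gm26786 in 7, with 6 in common, so these calls are uncertain as to gene. Its ranks were high, with a median percentile of 82.7.

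Jmjd6, which hydroxylates lysine residues of splicing proteins and whose demethylase activity is disputed, had 4 bins. The 1 that was called in all WT lists, chr11:116837433-116837532, lies 50 nt before the gene end. It was called once in KO+WT and in no KO or mutant list. Its ranks were between the 3.04 and 16.8 percentile. The other 3 bins were each called in 1 list, 2 of them in WT replicate 2 and the third in KO replicate 1.

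**Figure D2:**
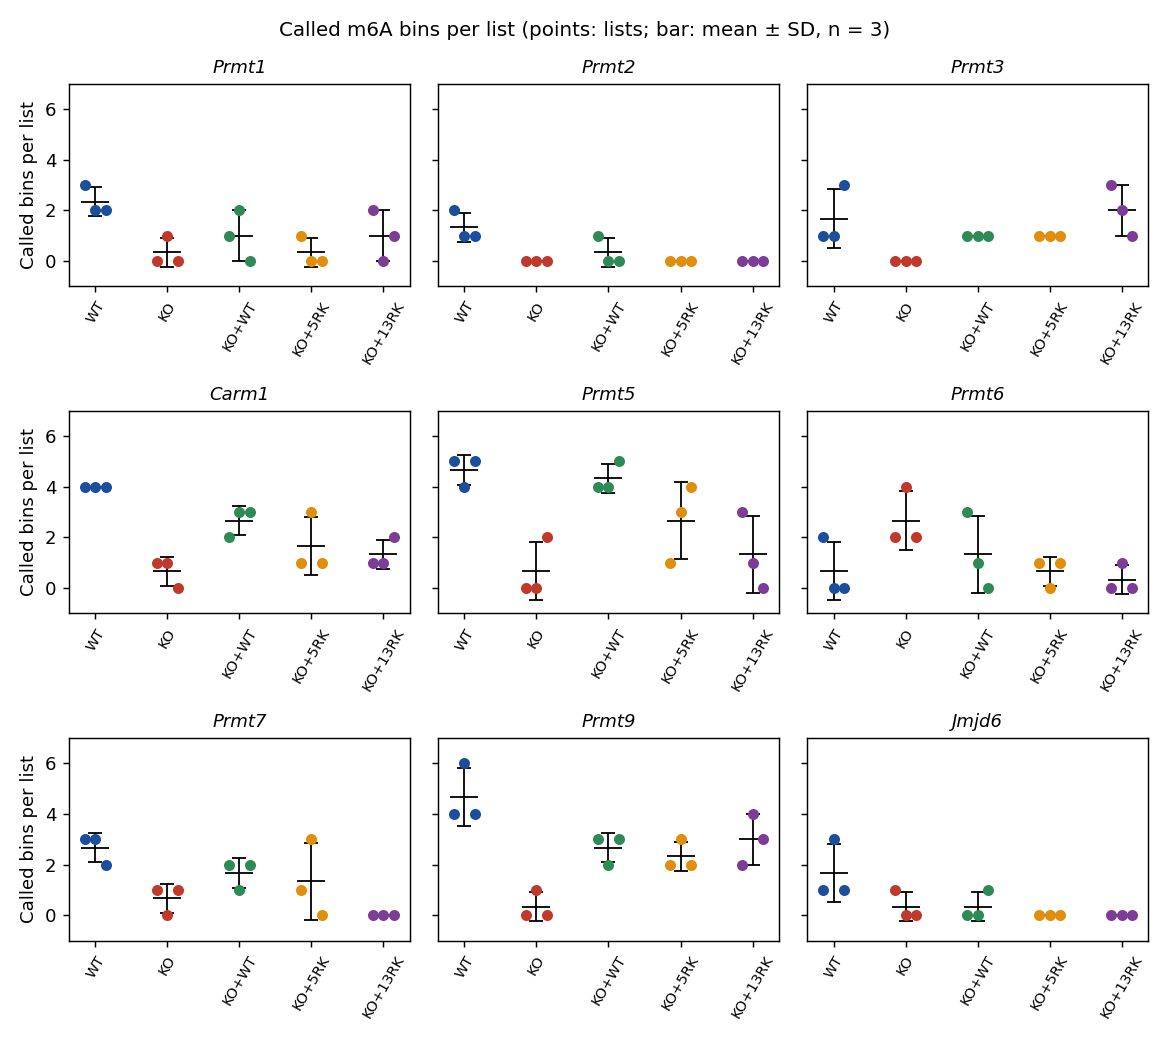
Number of called bins of each member (panels) in each list (points) by line, with a bar at the mean and its SD over 3 lists. Carm1, Prmt5 and Prmt9 have the highest WT values, 4 to 6 bins a list, and Prmt6 is the member whose KO values, 2 to 4, are not below its WT values of 0 to 2.

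Most of the steady wild-type bins were missing from the knockout, over all genes as well as in the members. Every WT list shared 15 member bins, and 14 of these were missing from all KO lists, against 80.2% over all genes. They were 4 bins of Prmt5, 3 each of Carm1 and Prmt9, 2 of Prmt7 and 1 each of Prmt3 and Jmjd6. From KO+WT to KO, 7 of 8 were lost, against 71.5% of all. The single member bin called in all 3 KO lists, that of Prmt6, counts as gained from either line, against 26.2% from WT and 23.5% from KO+WT. From WT to KO+WT 0 of 8 bins were gained, against 2.36% of all. No test was made of 3 lists against 3, since Fisher's exact test then cannot go below p = 0.1. Cut to lists of equal length, 2 member bins were still in every WT list and 2 in every KO+WT list, and of these 2 and 1 were missing from KO. The share over all genes at equal length is not given, so these counts have no background. Counted by gene, Prmt3 and Prmt2 were called in every WT list and no KO list, 2 of 8 members against 31.5% of all genes. From KO+WT it was only Prmt3, 1 of 5 against 25.7%. The doubts over Gm26856 for Prmt3 and Mir678 for Prmt2 apply to these counts.

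Return of the 14 lost bins was partial in every rescue line. The KO+WT lists called 9, 9 and 11 of them, the KO+5RK lists 5, 8 and 7, and the KO+13RK lists 6, 4 and 4. KO+WT lay above both mutants, which overlapped. In percent of the 14 this was 69.0% ± 8.25 for KO+WT, 47.6% ± 10.9 for KO+5RK and 33.3% ± 8.25 for KO+13RK (SD, n = 3 lists), and over the 9089 such bins of all genes it was 62.3% ± 2.69, 48.9% ± 6.11 and 36.9% ± 3.57. Each mean of all genes lay within 1 SD of the members' mean, taking the members' own SD. The bins called in all lists of all 3 rescues were the 3 that fell in KO, in Prmt3 and Prmt9. This match follows from the test of KO and is no separate finding on return. A bin rarer in KO passed that test only with no KO call and a call in every other list. Of the 14, 7 were called in no KO+13RK list (50.0%, against 42.8% of such bins over all genes), 4 in no KO+5RK list (28.6% against 27.8%) and 2 in no KO+WT list (14.3% against 17.5%). These last 2 were in Carm1 and Prmt9, 2 of the 15 bins called in every WT list, against 15.3% over all genes.

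**Figure D3:**
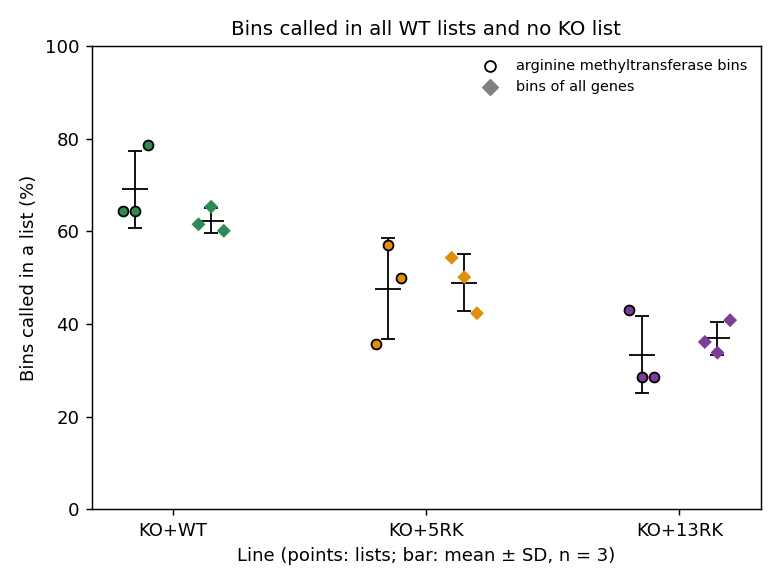
Percent of the bins shared by every WT list and missing from KO that each rescue list called (points, 3 lists a line, bar at the mean with its SD), for the 14 member bins and the 9089 bins of all genes. KO+WT means are 69.0% and 62.3%, KO+5RK 47.6% and 48.9%, KO+13RK 33.3% and 36.9%.

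No member bin separated the arginine mutants from the lines with wild-type METTL14 past the threshold. Of 24 member bins, 0 passed when the 6 WT and KO+WT lists were set against the 6 mutant lists (two-sided Fisher's exact test, Benjamini-Hochberg over 22615 bins, 0.0% called), and 1 had an unadjusted p under 0.05, as did 893 bins in all. That bin was chr8:106251737-106251836, the Prmt7 bin past the gene end, called in 5 of 6 lists against 0 of 6 (Fisher's exact test, p = 0.0152, adjusted p = 0.384). From KO+WT to KO+5RK and to KO+13RK, 0 of 8 member bins were lost, against 7.6% and 16.8% of all bins, and 0 of 4 and 0 of 4 gained, against 2.98% and 2.59%. By gene, 0 of 9257 tested passed (0.0%), and 0 members and 186 genes had an unadjusted p under 0.05. A missed threshold does not show that the lines are alike.

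Most of the steady wild-type bins lay towards the gene end, and fewer of the knockout calls did. Of the 15 member bins called in all WT lists, 11 lay within 2000 nt of the RefSeq gene end (73.3%, against 35.6% of such bins over all genes) and 0 lay within 500 nt of the start (3.35% over all genes). These 11 were 4 adjoining bins of Carm1, 4 of Prmt5 in 1 stretch, 2 adjoining bins of Prmt7 and 1 of Jmjd6. Within a gene they are not independent. Of the 13 bins called in any KO list, 6 lay near the start (46.2%, against 16.0%) and 2 near the end (15.4%, against 17.6%). Of these 13, 10 were called in KO alone, 76.9% against 43.5% of all KO bins. Of the 10, 7 were called in 1 KO list only, and 4 were the Prmt6 bins, whose gene is uncertain. The 6 near the start include the 4 of Prmt6, which adjoin each other and are not independent, and 1 each of Prmt1 and Prmt5. No test was made of these shares, which describe bins sharing a gene. Bins seen near the end carried the gene id of Carm1 with 6, Prmt5 with 5, Prmt7 with 3, Prmt2 and Jmjd6 with 2 each, and Prmt1 and Prmt9 with 1 each. Those of Carm1 include the bins past its end at Yipf2, and those of Prmt7 lie past its end at Gm26786.

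**Figure D4:**
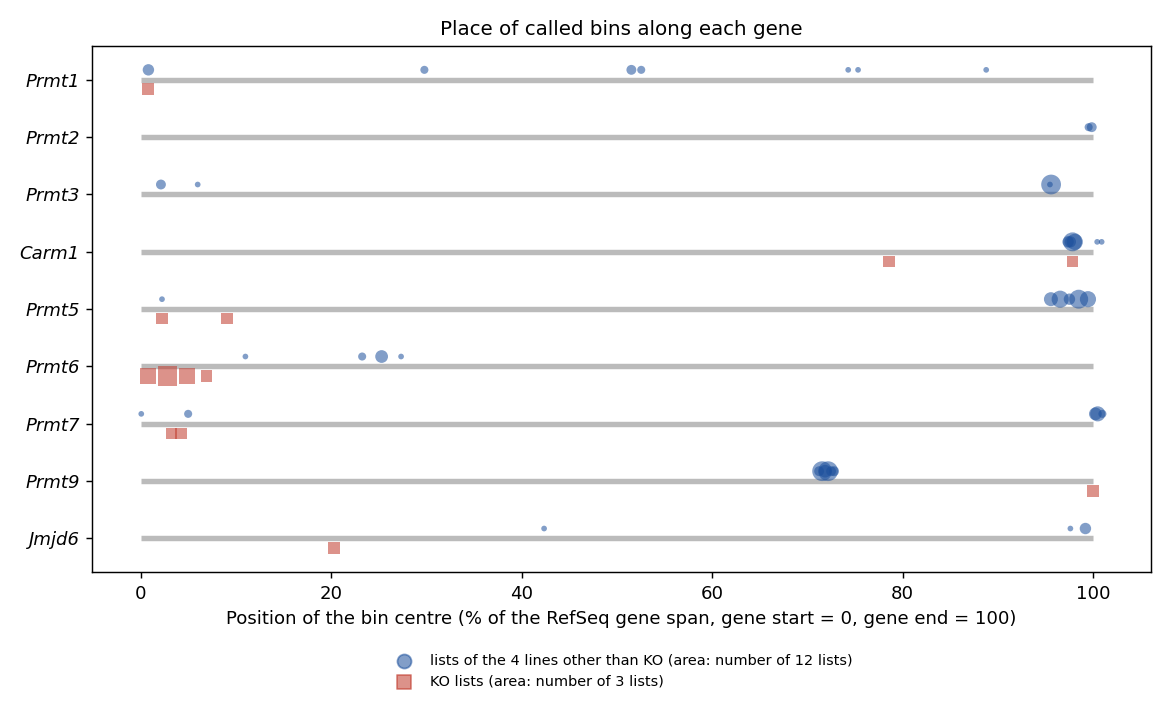
Place of each member bin along its gene (x axis, bin centre in percent of the RefSeq gene span from start to end; rows, genes). Circles are calls in the 12 lists of the other lines and squares calls in the 3 KO lists, with area by number of lists; the squares of Prmt6 sit at its start, while the circles of Carm1, Prmt5 and Prmt2 lie mostly or wholly at the gene end.

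Transcripts of proteins that work with these enzymes were put through the same test of KO, in 5 lists of genes. None of 14 tested bins of 8 cofactors and regulators passed the test of KO, nor did any of 8 tested bins of 6 genes of methyl donor supply and methylarginine turnover (1 of the 6 had no bin). Of 16 tested bins of 6 methylarginine readers 1 fell, in Akap1, a Tudor-domain anchor protein of mitochondria. Of 81 tested bins of 13 substrates with arginine-glycine repeats 3 fell, 2 in G3bp1, a stress granule protein, and 1 in Trp53bp1, a double-strand break repair protein. G3bp1 still held 7, 6 and 11 bins in the KO lists, against 11, 10 and 11 in WT. Trp53bp1 held 1, 0 and 0 in KO, against 5, 3 and 5 in WT. Of 7 tested bins of 4 further or candidate methyltransferases 2 fell, both in Fbxo11, an F-box protein once proposed to methylate arginine. In these 5 lists 0 bins rose in KO, and 0 passed the test of the arginine mutants. The 4.76% that fell over all genes is the value to read these counts against.

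Some of these genes were present in all lists of one line and absent from another, a count with no test. Over the 5 gene lists, 22 genes were called in every WT list and 4 of them in no KO list, against 31.5% of all genes, and 16 were called in every KO+WT list and 4 of them in no KO list, against 25.7%. Over all genes, 4.89% of those called in every KO list were absent from WT, and 5.67% from KO+WT. From WT to KO+WT 5.84% were lost and 1.47% gained, from KO+WT to KO+5RK 2.8% were lost and 1.68% gained, and 1.41% were gained in KO+13RK. Tdrd3, a reader of asymmetric dimethylarginine, had 4, 4 and 4 bins in WT and 0 in KO, with 2, 2 and 1 in KO+WT, 1, 2 and 0 in KO+5RK and 0, 0 and 1 in KO+13RK. Ddx5, an RNA helicase, had 1, 3 and 5 bins in KO and none in WT, KO+WT or KO+5RK, with 0, 0 and 2 in KO+13RK. Mtr, the methionine synthase, had 1 bin in each WT list and none in any other line. Btg1, a binding partner of PRMT1, and Mat2b, the regulatory subunit of methionine adenosyltransferase, were called in every WT and every KO+WT list and in no KO list, and Ddah2 in every KO+WT list and no KO list. Wdr77, the partner of PRMT5, was called in every WT list and no KO+WT list, and Clns1a, which presents Sm proteins to PRMT5, in every KO+13RK list and no KO+WT list.

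The genes most like Prmt6, the member with the most distinct bins, in bins per list over the 15 lists were Kif3a and Nudt3, each with a mean absolute difference of 0.467 bins, and Get4 with 0.533. Calls in the KO lists were part of this measure, so that all 3 share them with Prmt6 follows from the choice. Kif3a was also called in 3 of 3 lists of both mutants, and Get4 in 3 of 3 WT lists, where Prmt6 was called in 1.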

How the data were processed

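Per the labels' protocols, messenger RNA was fragmented, immunoprecipitated with an m6A antibody and made into stranded libraries, and 15 lists of called bins from the immunoprecipitated libraries were used, of 30 libraries in all. STAR 2.5.3a, kallisto 0.43.0 and GRCm38 appear, without roles, per the submitters' processing notes, and for the peak caller and its filters the sources used here give no name. The authors deposited for each bin an enrichment score, of unknown scale and from 0.31 to 5.82, used only to rank bins within a list. Their deposited p-value and q-value were used only to filter, and every q was under 0.05.

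Presence of a bin was compared between lists. A bin or gene called in at least 3 of the lists compared was tested by Fisher's exact test with Benjamini-Hochberg adjustment over all genes at 0.05 (Python 3.11.15, SciPy 1.17.1), a step tested on simulated data. Lost or gained means 3 lists against 0. Symbols matched 99.7% of genes, and RefSeq gene spans of GRCm38.p6, matched by symbol, placed 91.0% of bins. Sequence was read only from RefSeq promoter windows; transcript parts and input expression were not analysed here. The members and the gene lists were chosen with earlier results of these data known. Besides the members, a gene of the fixed lists was named where a bin passed the test of KO or where the gene was lost or gained in 1 of 5 pairs of lines. Alternatives were a stricter q, an enrichment minimum, lists of equal length, merged bins, protein-coding genes, a replicate block, 2 lists against 0, and leaving out each list.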

Additional observations from a re-analysis of the deposited data

How the results depend on the processing

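Depth is unknown, so calls missed for lack of reads cannot be counted, and the lists' lengths differ between lines in the same order as the member counts. For the test of KO against the 12 other lists, the 4 member bins (1440 over all genes) became 1 at q under 0.005 (Prmt9; 690 over all genes), 1 at equal list length (Prmt9; 963), 0 at an enrichment of at least 1.36 and 0 with the replicate block, where the smallest adjusted p of a member bin was 0.138. In the last 2 settings, 0 bins of any gene passed. The member genes passing went from 0 of 9 to 1 of 8 at q under 0.005, and the genes passing over all genes from 0 to 301. For the counts of 690, 963 and 301 the number tested over all genes is not given, so no share can be read from them. Leaving out 1 list gave 0 to 5 bins and 0 to 0 genes; without 1 KO list, the 2 left allowed 0 calls over all genes, so the 0 says nothing of the members. The test of the arginine mutants stayed at 0 to 0 bins.

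From WT to KO, lost bins were 14 of 15 in the report, 8 of 8 at q under 0.005, 3 of 3 at the enrichment minimum and 2 of 2 at equal length. Over all genes, 9089 (80.2%), 5404, 3543 and 2492 bins were lost in these settings. For every pair of lines, shares over all genes are given for the main setting only. Member counts in the other settings therefore have no background share and are no result about the members in particular. Without 1 list, 14 to 17 member bins were lost. Gained bins were 1 of 1, then 0 of 0 in each of the 3 stricter settings and 1 to 2 without 1 list. They were 3 of 3 with a call in at least 2 lists taken as enough. From KO+WT to KO, lost bins were 7 of 8, then 3 of 3, 1 of 1 and 1 of 2, and 7 to 9 without 1 list. With at least 2 lists they were 11 of 13. Gained bins were 1, then 0, 0, 0, 1 to 2 and 3. From WT to KO+WT, lost bins were 2 of 15, then 1 of 8, 0 of 3 and 0 of 2. Without 1 list they were 2 to 4 (4 without WT replicate 3), and with at least 2 lists 6 of 23. Gained bins were 0, 0 to 1 without 1 list and 1 with at least 2. From KO+WT, bins lost in KO+5RK were 0 of 8, 1 of 3 at q under 0.005, 0 to 2 without 1 list and 2 of 13 with at least 2 lists. In KO+13RK they were 0 of 8, 1 of 3, 0 to 2 and 4 of 13. Gained bins were 0 to 0 for KO+5RK, and for KO+13RK they were 0 to 1 without 1 list and 1 with at least 2. Fewer bins enter under each stricter setting; otherwise the cause was not tested.

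No pairing of same-numbered replicates was seen in the calls. Over 30 pairs of lists the correlation of their deviations ran from -0.03 to 0.0348, and 19 of 60 comparisons were best with their own number. Such calls cannot show that replicates of the same number were handled apart. The block is therefore not read as a measure of a weaker effect.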
